A study of Homo sapiens with 24 samples.

Results

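Transcripts of 10 genes of the presomitic mesoderm and its segmentation clock were followed through 24 RNA sequencing libraries of H9, a long-established line of human embryonic stem cells. The 10 genes, MSGN1, MESP1, MESP2, RIPPLY2, HES7, LFNG, DLL1, DLL3, MEOX1 and PAX3, were taken by symbol from the 28297 Ensembl genes of the deposited table. The 24 libraries formed 8 groups of 3. In monoculture there were engineered cells (Cry2) and wild-type cells (wt), each in the dark and under light. The other 4 groups came from 1:1 co-cultures kept in the dark or under light, sorted into mCherry-positive engineered cells and GFP-positive wild-type cells.

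The engineered cells carry a fusion of Cry2, a plant photoreceptor that clusters in blue light, with the cytoplasmic part of the Wnt co-receptor LRP6, followed by mCherry and a puromycin resistance gene. The wild-type cells carry eGFP and a neomycin resistance gene, so both kinds of cell are transgenic. All groups grew in E8, a medium for undifferentiated stem cells. Light was 0.8 µW/mm2 for 48 h, and each biological replicate pooled several wells. The engineered cells were not described as to clone in the labels. Only the co-culture groups were sorted, and their libraries were deposited at another time than the monocultures. Culture, sorting and time of deposit therefore cannot be told apart. The question the design puts is how cells respond when the Wnt pathway is switched on by light, alone and beside cells that do not carry the fusion.

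The presomitic mesoderm is the tissue at the posterior end of the embryo from which somites, the precursors of vertebrae, skeletal muscle and dermis, are cut off one after another. Wnt and FGF signals keep its cells immature, while the segmentation clock, a loop in which Notch signalling induces its own repressors, sets the rhythm. Bulk libraries average over cells in all phases of such a loop, so they give a level and not an oscillation. They also cannot tell fewer expressing cells from less RNA per cell.

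Values are the authors' normalised read numbers, each a whole read count divided by 1 factor per library. Reads assigned to genes numbered 28211236 to 34278319 per dark monoculture library, 45748680 to 54689953 per light monoculture library and 31763812 to 56620471 per co-culture library, so that depth and light coincide in monoculture. Transcripts of the fusion ran from 34166.5 to 61394.2 in the 12 libraries of engineered cells and from 218.9 to 426.5 in the 12 of wild-type cells. eGFP was at 11980.1 to 14951.5 in wild-type libraries and at most 29.8 in engineered ones, so construct and marker reads go with the titles. Among the 12 monoculture libraries, wt dark 1 had a GC content of 33.73%, against 50.47% to 51.77% in the other 11, and Cry2 dark 3 the lowest RNA integrity number, 7.6.

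RefSeq promoter entries (GRCh38.p14) existed for 6 of the 10 genes. Those of MSGN1, HES7 and MESP2 are shown, each as the 250 bases before the gene start. MSGN1 and HES7 were chosen because they went from near silence to high levels in illuminated engineered cells. MESP2 was chosen because its change with light did not pass the threshold given below. Capitals mark the 6 letters CTTTGA, the core of sites bound by the Wnt effectors TCF and LEF, and TGGGAA, the core of sites for the Notch effector RBPJ, on either strand.

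MSGN1, chr2:17816210-17816459, plus strand: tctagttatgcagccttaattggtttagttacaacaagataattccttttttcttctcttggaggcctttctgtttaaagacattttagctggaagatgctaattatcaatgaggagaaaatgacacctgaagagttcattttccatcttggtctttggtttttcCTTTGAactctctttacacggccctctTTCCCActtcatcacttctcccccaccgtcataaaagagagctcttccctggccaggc
HES7, chr17:8124107-8124356, minus strand: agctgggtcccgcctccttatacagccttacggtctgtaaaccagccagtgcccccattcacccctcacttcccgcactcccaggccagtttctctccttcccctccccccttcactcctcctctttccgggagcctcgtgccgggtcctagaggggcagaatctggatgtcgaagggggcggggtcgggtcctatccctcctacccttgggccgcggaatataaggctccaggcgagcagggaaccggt
MESP2, chr15:89776082-89776331, plus strand: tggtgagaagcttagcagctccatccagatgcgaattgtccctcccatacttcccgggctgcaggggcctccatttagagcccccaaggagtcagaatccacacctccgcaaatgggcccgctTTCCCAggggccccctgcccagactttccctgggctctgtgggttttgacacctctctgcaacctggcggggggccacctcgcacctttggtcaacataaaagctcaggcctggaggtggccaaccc

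MSGN1 holds CTTTGA at bases -85 to -80 and TGGGAA, read on the minus strand, at -58 to -53, counted from the base before the start as -1. MESP2 holds TGGGAA on the minus strand at -127 to -122, and HES7 holds neither. CTTTGA occurs in 11.2% and TGGGAA in 20.8% of the 35116 promoter windows of the same length, so either is common. No promoter of a member held the T-box site AGGTGTGA (0.786% of windows) or the E-box CACGTG (6.34%). A match is a string of letters in this window and not a bound site.

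Light raised 8 of the 10 genes in Cry2 monocultures, each at an adjusted p under 0.05 in limma-trend with Benjamini-Hochberg adjustment over 19444 genes. MSGN1, MESP1, HES7, LFNG, DLL1, DLL3, RIPPLY2 and PAX3 rose, MESP2 was not called, and MEOX1 was too low to be tested. In this comparison 28.1% of all genes were called higher and 58.4% in either direction. The median log2 change of the 9 genes tested was 4.45, against -0.01 for all genes tested. MSGN1, MESP1 and PAX3 were high enough to be tested only through Cry2 light, which favours rises in the count and the median. For 8 of the 10 genes the 3 light and 3 dark libraries did not overlap, as for 65.7% of all genes tested.

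DLL3 and DLL1 encode Delta-like proteins. DLL1 activates Notch receptors on neighbouring cells, and DLL3, a divergent relative, does not act as an activating ligand. DLL3 (ENSG00000090932, chromosome 19, 39498895 to 39508481, plus strand) was at 844.7, 712.6 and 869.1 in Cry2 dark and at 27779.1, 30151.6 and 27750.6 in Cry2 light. All 3 light libraries lay far above all 3 dark ones. The means, 808.8 ± 84.2 and 28560.4 ± 1378.0 (SD, n = 3 each), differed 35.3-fold, a log2 change of 5.14 ± 0.11 (SE) with a limma adjusted p of 7.86e-15.

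DLL1 (ENSG00000198719, chromosome 6, 170282206 to 170306565, minus strand) was at 289.8, 263.0 and 221.7 in the dark and at 5684.7, 6160.0 and 5134.7 under light. It rose 21.9-fold, by log2 4.45 ± 0.14 (limma adjusted p 5.46e-13), again without overlap. On the scale per kilobase of exon, where levels of different genes can be compared, DLL3 exceeded DLL1 3.86 times in Cry2 dark and 6.22 times in Cry2 light. The DLL1 gene overlaps FAM120B on the opposite strand, and FAM120B rose by log2 1.17 (limma adjusted p 8.43e-10), from 1214.7 ± 78.4 to 2725.9 ± 35.9. Whether reads of one gene entered the other's value was not tested.

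LFNG (ENSG00000106003, chromosome 7, 2512529 to 2529177, plus strand) encodes lunatic fringe, a glycosyltransferase that modifies Notch receptors and is a cycling gene of the clock in mice. Its dark values in Cry2 cells were 1109.8, 892.1 and 1055.2, and its light values 13416.8, 14291.4 and 13297.7. LFNG was thus well expressed before light and rose 13.4-fold, by log2 3.75 ± 0.08 (limma adjusted p 9.02e-15). The microRNA gene MIR4648 lies inside LFNG on the same strand and was listed at 21.5 ± 4.58 in Cry2 light and at 0 in Cry2 dark.

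HES7 (ENSG00000179111, chromosome 17, 8120590 to 8124092, minus strand) encodes the transcriptional repressor at the centre of the clock. It was at 17.0, 9.9 and 20.8 in the dark and at 4132.1, 4454.3 and 4073.5 under light. With means of 15.9 ± 5.55 and 4219.9 ± 205.0 it rose 265.4-fold, by log2 8.02 ± 0.39 (limma adjusted p 7.99e-11). The coefficient of variation between the 3 light libraries was 4.86%.

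MSGN1 (ENSG00000151379, chromosome 2, 17816496 to 17817101, plus strand) encodes mesogenin, a basic helix-loop-helix factor that commits cells to the presomitic mesoderm. It had no read in any of the 3 Cry2 dark libraries and 11415.4, 12600.3 and 12162.0 normalised reads in Cry2 light. Against the floor of 3 reads over the dark group it was at least 8598.0-fold higher, with a limma adjusted p of 1.31e-13. Of the 10 genes it was the only one with no read in Cry2 dark.

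MESP1 and MESP2 are sister genes for basic helix-loop-helix factors, which lie side by side on opposite strands of chromosome 15. MESP1 marks early mesoderm that includes heart precursors, and MESP2 sets the border of the next somite. MESP1 (ENSG00000166823, 89748661 to 89751310) had 0, 1 and 1 reads in the 3 Cry2 dark libraries and stood at 1148.1, 1246.3 and 1365.5 under light (limma adjusted p 2.22e-09). MESP2 (ENSG00000188095, 89760591 to 89778754) was at 56.1, 87.7 and 64.0 in the dark and at 97.7, 53.5 and 117.1 under light. Only MESP1 was called, for the MESP2 groups overlapped and its log2 change was 0.32 ± 0.3 with a limma adjusted p of 0.396. Per kilobase of exon, MESP1 stood at 0.0105 times MESP2 in Cry2 dark, where it rests on 2 reads, and at 10.5 times in Cry2 light. GENCODE starts MESP2 at 89760591, upstream of the RefSeq window that ends at 89776331, and the gene-level value does not separate the longer transcript from the shorter.

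RIPPLY2 (ENSG00000203877, chromosome 6, 83853266 to 83857515), which encodes a co-repressor that ends MESP2 expression as a somite forms, stayed low. Its Cry2 values were 17.0, 9.9 and 37.2 in the dark and 48.9, 43.8 and 38.2 under light. The groups just failed to overlap, and the log2 change of 1.18 ± 0.41 (limma adjusted p 0.0207) was lost when Cry2 dark 1 or 2 or Cry2 light 1 or 2 was left out, with adjusted p values of 0.0551, 0.111, 0.0649 and 0.0518.

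PAX3 and MEOX1 mark formed somites and their dermomyotome, and PAX3 also marks neural crest and dorsal neural tube. PAX3 (ENSG00000135903, chromosome 2, 222199888 to 222298996) had 0, 0 and 1 reads in Cry2 dark and values of 28.0, 30.0 and 16.9 in Cry2 light (limma adjusted p 1.49e-05). Its level was low: per kilobase of exon it reached 3.14 in Cry2 light, against 19899.7 for MSGN1. MEOX1 (ENSG00000005102, chromosome 17, 43640388 to 43661954) was at 10.4, 0.0 and 0.0 in the dark and at 4.52, 1.62 and 5.32 under light, and no value in any of the 24 libraries exceeded 10.4.

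**Figure D1:**
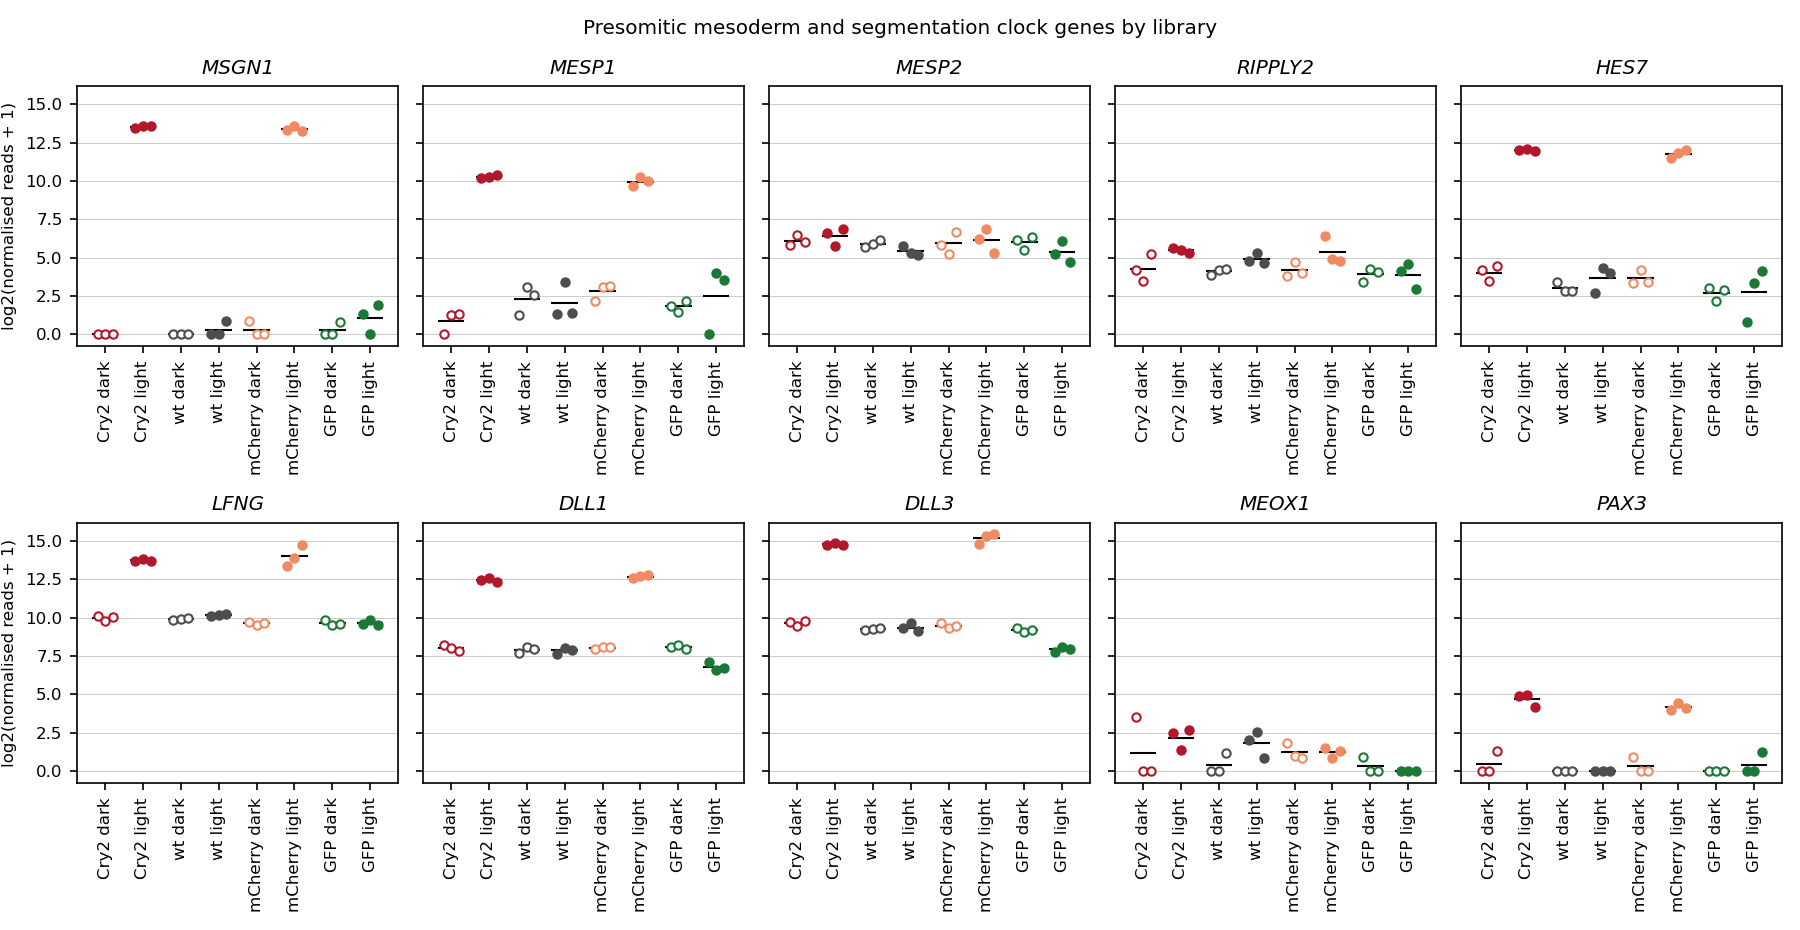
Normalised reads of the 10 genes in every library, as log2(value + 1), for 8 groups of 3 libraries; open points are dark, filled points light, and lines are group means. MSGN1, MESP1, HES7, LFNG, DLL1 and DLL3 are high in the illuminated engineered groups (Cry2 light and mCherry light), PAX3 reaches at most 30.0 there, and MESP2 lies between 25.6 and 117.3 everywhere.

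In wild-type monocultures light changed no member past the threshold. None of the 9 tested genes was called between wt light and wt dark by limma, by edgeR or by DESeq2, where 0.072% of all genes were called by limma, and 1 of the 9 (LFNG) had an unadjusted p under 0.05, as did 13.2% of all genes. LFNG was at 937.0, 977.1 and 1004.7 in the dark and at 1087.2, 1168.9 and 1201.2 under light. Its groups did not overlap, nor did those of RIPPLY2 (13.8, 17.4 and 18.6 against 26.0, 38.1 and 24), while 17.8% of all genes did not. The limma adjusted p was 0.256 for LFNG and 0.428 for RIPPLY2. MSGN1 had 1 read over the 3 wt light libraries and none in wt dark, and PAX3 had none in all 6. Neither could therefore be called in this comparison, though both count among the 9.

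The light effect differed between Cry2 and wt monocultures for 7 of the 9 genes, each by an interaction term of the same limma fit, where 22.8% of all genes were called higher and 47.8% in either direction. The differences in log2 change were 13.27 ± 0.53 for MSGN1, 9.69 ± 0.85 for MESP1 and 7.39 ± 0.55 for HES7. They were 5.05 ± 0.15 for DLL3, 4.51 ± 0.2 for DLL1, 4.22 ± 0.82 for PAX3 and 3.51 ± 0.11 for LFNG. RIPPLY2 (0.41 ± 0.57, limma adjusted p 0.588) and MESP2 (0.82 ± 0.43, 0.133) did not pass. For MSGN1 and PAX3, which had groups without a single read, edgeR gave an adjusted p of 1.0 for this term.

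Under light, Cry2 monocultures exceeded wt monocultures in 8 genes by limma, where 29.6% of all genes were called higher and 60.9% in either direction. MESP2 was among the 8 and RIPPLY2 was not. MESP2 stood at 97.7, 53.5 and 117.1 in Cry2 light and at 52.8, 39.0 and 35.2 in wt light, narrowly apart. The log2 difference was 1.01 ± 0.3 (limma adjusted p 0.00963), which fell to 0.78 with an adjusted p of 0.0576 without Cry2 light 3. Including RIPPLY2, the groups did not overlap for 9 of the 10 genes, as for 64.7% of all genes.

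In the dark, none of the 9 tested genes was called between Cry2 and wt monocultures by limma, where 3.6% of all genes were called, and 3 of the 9 had an unadjusted p under 0.05, as did 17.1% of all genes. DLL3 was the nearest to the threshold. Its values of 844.7, 712.6 and 869.1 in Cry2 dark lay above 582.0, 604.9 and 640.8 in wt dark, and the log2 difference was 0.4 ± 0.11 with a limma adjusted p of 0.0554. DLL3 was called by edgeR (adjusted p 0.0385) and by DESeq2 (0.00768). HES7 also did not overlap, at 9.9 to 20.8 against 6.21 to 9.63 (limma adjusted p 0.196), and 27.4% of all genes did not overlap in this comparison. MSGN1 had no read in any of the 6 dark monocultures and PAX3 had 1 read, so neither could be called, though both count among the 9.

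Light also raised members in engineered cells sorted from co-culture. In mCherry light against mCherry dark 7 of the 9 tested genes were called higher by limma, where 27.2% of all genes were called higher and 55.9% in either direction. The median log2 change of the 9 was 4.63, against -0.01 for all genes. MSGN1, MESP1, HES7 and PAX3 were high enough to be tested here only through mCherry light, which favours rises in both figures. MSGN1 was at 10264.2, 12317.5 and 10002.1 under light, with 1 read in total over the 3 dark libraries. MESP1 rose 162.3-fold, from 3.42, 7.44 and 7.91 to 803.1, 1218.7 and 1026.4. HES7 rose 294.3-fold, from 9.42, 17.7 and 9.49 to 2939.8, 3673.7 and 4153.7. For all 3 genes every light library lay above every dark one.

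DLL1 was at 249.9, 264.2 and 272.9 in mCherry dark and at 6004.0, 6640.7 and 6990.6 in mCherry light, a rise of 24.9-fold. DLL3 rose 53.8-fold, from 791.8, 628.9 and 684.3 to 28856.7, 40106.3 and 44190.8. LFNG rose 22.1-fold, from 852.5, 735.0 and 804.5 to 10628.1, 15365.3 and 26915.1. LFNG was the most variable of these between light libraries, with a coefficient of variation of 47.5%, against 3.97% in Cry2 light. FAM120B, which overlaps DLL1, rose here by log2 1.16 (limma adjusted p 9.53e-09).

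The other 4 genes stayed low in mCherry light. PAX3 was at 14.9, 20.2 and 16.6, with 1 read over the 3 dark libraries (limma adjusted p 4.93e-05). RIPPLY2 was at 84.2, 29.1 and 27.1 against 12.8, 25.1 and 15.0, not overlapping but with a limma adjusted p of 0.0563. edgeR (0.0239) and DESeq2 (0.0147) called RIPPLY2. MESP2 (71.9, 117.3 and 39.1 against 56.5, 37.2 and 101.3) overlapped, and MEOX1 was at 0.809 to 1.75. In all, 8 of the 10 genes did not overlap between mCherry light and dark, as for 58.4% of all genes.

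Engineered cells under light were compared between the cultures, which also differ in sorting and time of deposit. None of the 9 tested genes was called by limma between mCherry light and Cry2 light, where 0.723% of all genes were called, and edgeR and DESeq2 called none. An unadjusted p under 0.05 was found for 1 of the 9 (DLL3) and for 13.1% of all genes. For all 10 genes the libraries overlapped, while 10.8% of all genes did not. The log2 differences ran from -0.48 ± 0.55 for PAX3 to 0.38 ± 0.13 for DLL3. The library mCherry light a held the lowest DLL3 and LFNG values of its group, and without it both genes were called higher in co-culture, by log2 0.56 (limma adjusted p 0.00535) and 0.57 (0.0139). Leaving out that library also raised the share of all genes called from 0.723% to 17.0%. The difference between the light effects of the cultures likewise called none (0.064% of all genes, and no call of the 9 by edgeR or DESeq2), with 3 of the 9 genes and 5.01% of all genes at an unadjusted p under 0.05. Without that library it called DLL3 and LFNG, at limma adjusted p values of 0.0429 and 0.0458, and 0.394% of all genes.

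**Figure D2:**
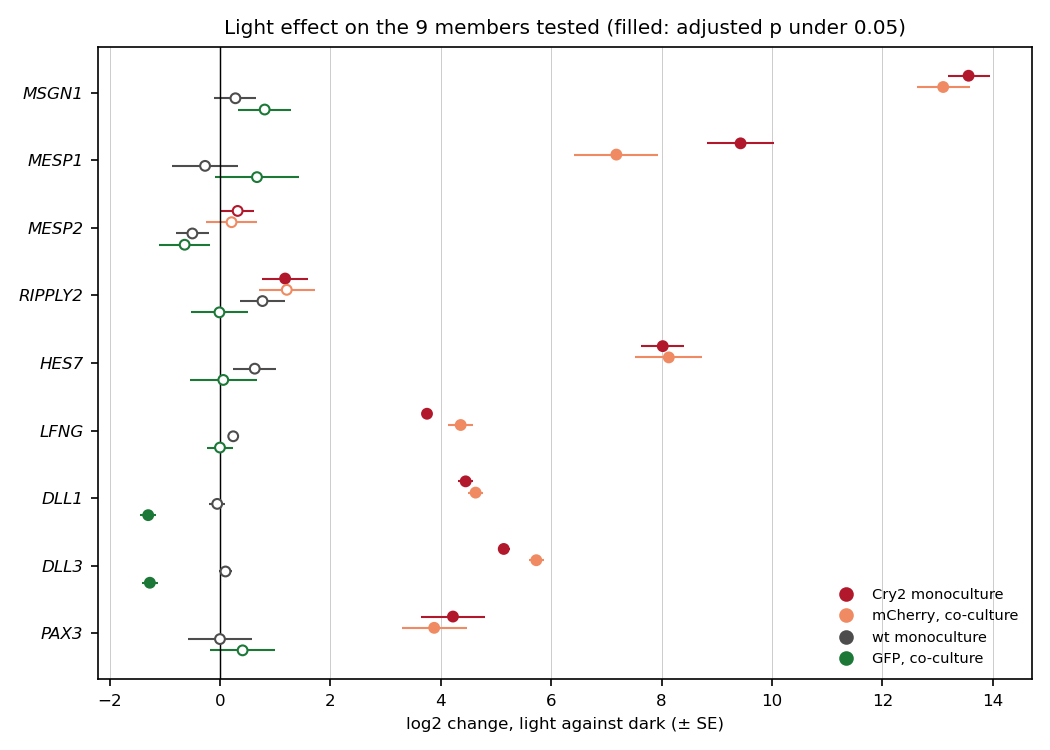
Log2 change with light, ± SE, of the 9 tested genes in the 4 kinds of cell, with filled points at a limma adjusted p under 0.05; for LFNG and DLL3 some error bars are narrower than the symbols. Both engineered populations lie far to the right for MSGN1, MESP1, HES7, LFNG, DLL1, DLL3 and PAX3, while DLL1 and DLL3 lie left of 0 in GFP cells, at -1.3 and -1.27.

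Wild-type cells from illuminated co-cultures showed lower DLL1 and DLL3 transcript levels than those from dark co-cultures. These were the 2 of the 9 tested genes called by limma in GFP light against GFP dark, where 2.21% of all genes were called lower and 4.6% in either direction. DLL1 was at 275.2, 300.8 and 241.1 in GFP dark and at 134.6, 96.1 and 102.4 in GFP light. It was 2.45-fold lower, a log2 change of -1.3 ± 0.14 with a limma adjusted p of 4.33e-05. DLL3 was at 651.4, 543.2 and 573.8 in GFP dark and at 215.8, 265.6 and 249.3 in GFP light, 2.42-fold lower (log2 change -1.27 ± 0.14, limma adjusted p 9.08e-05). For both genes every light library lay below every dark one, as for 24.8% of all genes in either direction, and all other members overlapped.

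The falls held when each library was left out in turn, with log2 changes from -1.44 to -1.2 for DLL1 and from -1.34 to -1.19 for DLL3. DLL3 and DLL1 kept nearly the same proportion, 2.67 per kilobase of exon in GFP dark and 2.7 in GFP light. FAM120B, on the strand opposite DLL1, was at 1207.8 ± 82.2 in GFP dark and 1153.1 ± 42.1 in GFP light (log2 change -0.07, limma adjusted p 0.771).

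In wt monocultures DLL1 was at 205.0, 272.6 and 243.4 in the dark and at 196.8, 259.9 and 239.0 under light, and DLL3 at 582.0, 604.9 and 640.8 against 625.5, 788.1 and 562.6. Neither was called there. The difference between the light effects in co-culture and monoculture was itself tested in a fit of all 24 libraries. It was -1.25 ± 0.2 for DLL1 (limma adjusted p 0.000488) and -1.37 ± 0.19 for DLL3 (7.92e-05), the 2 members called, where 0.886% of all genes were called lower and 2.3% in either direction. LFNG, the third member well expressed in wild-type cells, was at 762.4, 933.4 and 727.6 in GFP light and at 932.8, 738.0 and 750.6 in GFP dark, with a log2 change of 0.0 ± 0.23.

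**Figure D3:**
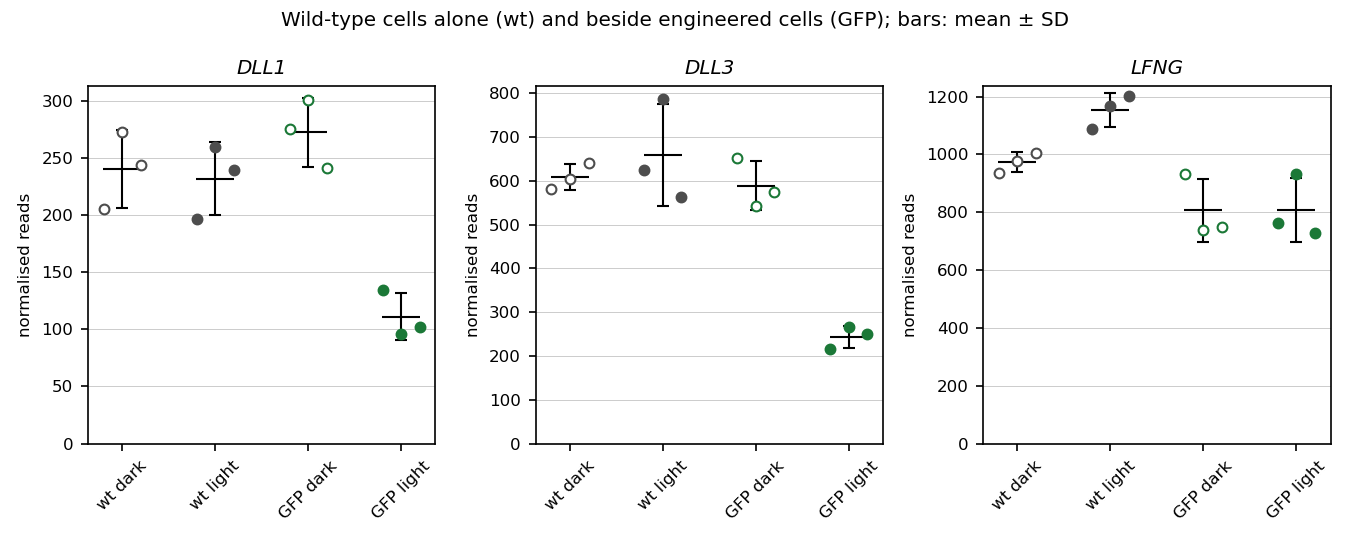
Normalised reads of DLL1, DLL3 and LFNG in the 4 wild-type groups on a linear axis from 0, with points for libraries and bars for mean ± SD (n = 3). In GFP light the DLL1 libraries (96.1 to 134.6) and DLL3 libraries (215.8 to 265.6) lie below those of the other 3 wild-type groups, while LFNG in GFP light overlaps GFP dark.

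Members with few or no reads in the dark stayed low in GFP cells. MSGN1 had 2, 0 and 2 reads in GFP light, 0.0129% of the mean in mCherry light. HES7 was at 0.752, 9.42 and 16.2 in GFP light and at 7.08, 3.59 and 6.44 in GFP dark, with a wide spread under light (limma adjusted p 0.984). MESP1 was at 0.0, 15.1 and 10.8 against 2.66, 1.8 and 3.58 (0.745), and was called without GFP light a, at log2 1.93 and an adjusted p of 0.0157. PAX3 had 1 read over the 6 GFP libraries. In GFP light DLL1 and DLL3 stood at 1.7% and 0.646% of their mCherry light means.

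Between the sorted populations, none of the 9 genes was called in the dark by limma (0.797% of all genes were), none had an unadjusted p under 0.05 (5.65% of all genes did), and edgeR and DESeq2 called none. HES7 alone did not overlap (9.42 to 17.7 in mCherry dark, 3.59 to 7.08 in GFP dark), against 16.5% of all genes. MSGN1 and PAX3 had at most 1 read in any of these dark libraries and could not be called there. Under light 8 of the 9 were higher in mCherry cells, where 26.8% of all genes were called higher and 54.3% in either direction. The groups did not overlap for 9 of the 10, as for 54.1% of all genes tested. These 9 include MEOX1, which was too low to be tested, with 2, 1 and 1 reads in mCherry light and no read in GFP light. The difference in DLL3 was 154.9-fold and that in DLL1 59.0-fold. RIPPLY2 was among the 8 (log2 1.48 ± 0.51, limma adjusted p 0.0236), but not without mCherry light a (adjusted p 0.114) or GFP light c (0.116). The light effects of the sorted populations differed for 7 of the 9 genes, where 19.5% of all genes were called higher and 40.5% in either direction, by log2 12.29 for MSGN1, 8.07 for HES7, 7.0 for DLL3, 6.5 for MESP1, 5.93 for DLL1, 4.36 for LFNG and 3.47 for PAX3. For PAX3 this term had an adjusted p of 0.00376 in limma, 0.911 in edgeR and 0.109 in DESeq2.

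Among 15 other transcription factors and effectors of the presomitic mesoderm and somite, 9 were tested in Cry2 cells, 7 rose with light and 1 fell. Their median log2 change was 3.42, against -0.01 for all genes tested, of which 28.1% were called higher and 58.4% in either direction. A gene near 0 in the dark, such as TBXT or FOXC1, could be tested only through libraries where it is high, which favours rises. TBXT (brachyury), the T-box factor of the primitive streak and tailbud, rose from 5.7 ± 2.81 to 28324.1 ± 1567.1. TBX6, which directs cells to paraxial mesoderm, rose 106.5-fold from 155.0 ± 37.1, and FOXC1, a paraxial mesoderm factor, from 2.88 ± 2.83 to 8286.9 ± 281.0. EPHA4, a receptor of the somite border, rose 26.5-fold.

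TCF15 (paraxis), a factor of the epithelial somite, fell from 366.1 ± 37.2 to 149.6 ± 20.9 (limma adjusted p 5.53e-06). The somite genes PAX1, PAX9, MEOX2 and TBX18 were too low to be tested. RIPPLY1 and UNCX were not analysed here. In mCherry cells 6 rose and 1, again TCF15, fell, where 27.2% of all genes were called higher and 55.9% in either direction. In GFP cells 1 of the 9 was called, against 4.6% of all genes in either direction. It was TBXT, at 118.7 ± 14.2 in GFP light and 4.57 ± 2.42 in GFP dark (log2 change 4.54 ± 0.32, limma adjusted p 8.7e-07), while TBX6 was at 146.5 ± 20.5 and 158.4 ± 20.7 (0.75).

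Of 19 other Notch pathway genes tested in Cry2 cells, 7 rose and 6 fell with light, a share near the 58.4% of all genes called in either direction, with a median log2 change of 0.13, against -0.01 for all genes. Those that rose included the targets and relatives HES6, HEY2 and HES1, by log2 2.23, 2.11 and 2.1, and the receptor NOTCH1, from 4775.8 ± 485.7 to 12669.6 ± 1564.4. Those that fell included the ligands JAG1 (from 1835.5 ± 96.2 to 672.3 ± 62.4) and JAG2, the transcription factor RBPJ, and NRARP, a feedback inhibitor and Notch target, 4.67-fold lower at 176.1 ± 11.8 against 821.8 ± 34.8. In mCherry cells 8 rose and 6 fell, against 55.9% of all genes called in either direction, and JAG1, JAG2, NRARP and RBPJ fell there too.

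In GFP cells 4 of the 19 passed, against 4.6% of all genes called in either direction. HEY1, a Notch target, rose 4.28-fold from 66.6 ± 8.71 to 284.9 ± 38.2 (limma adjusted p 0.00349), JAG2 1.62-fold (0.0153) and NOTCH3 1.43-fold (0.00728). The fourth, named after its values were seen, was DLL4, another Delta-like ligand, which fell from 20.1 ± 3.93 to 2.85 ± 1.83 (0.00818). HES1 was at 896.2 ± 132.4 in GFP light and 349.0 ± 84.6 in GFP dark, with an adjusted p of 0.1.

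**Figure D4:**
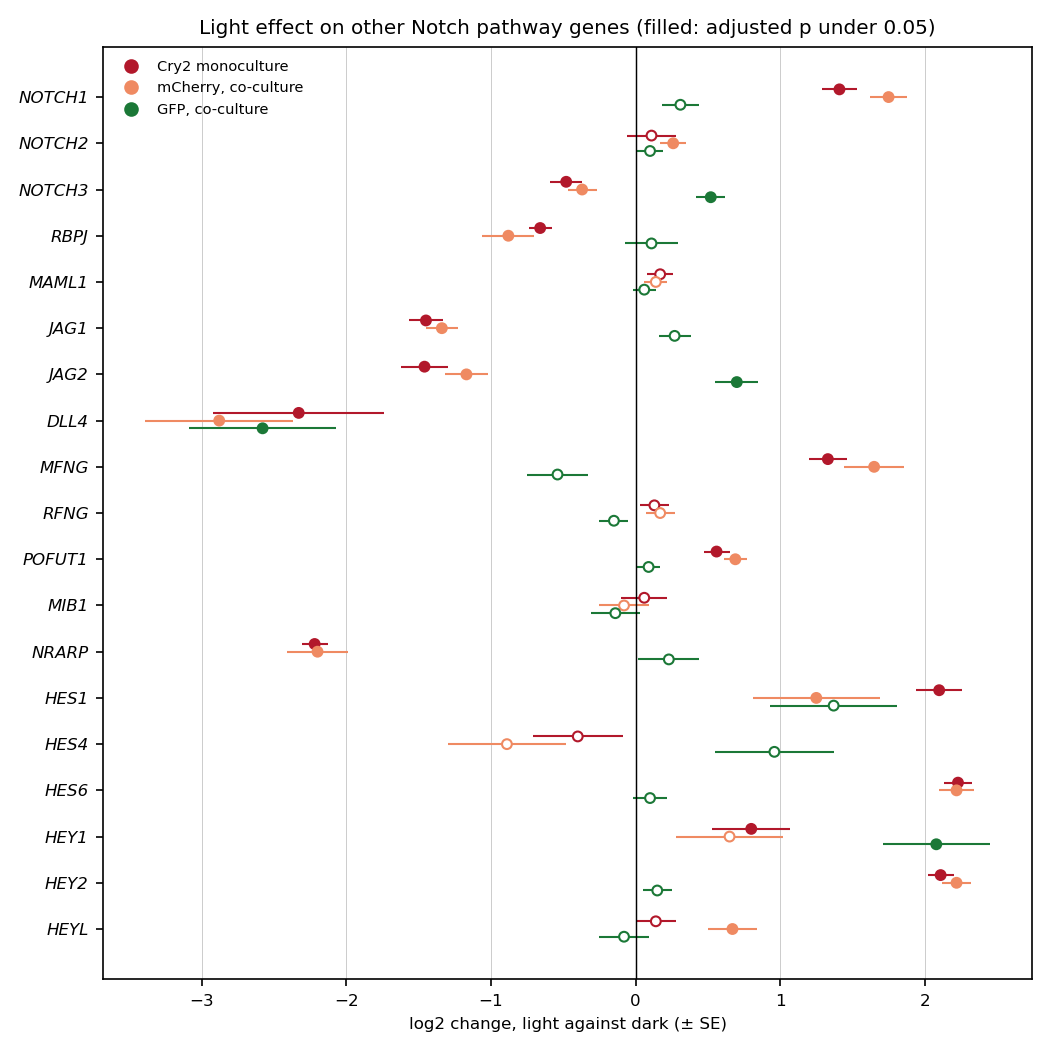
Log2 change with light, ± SE, of 19 other Notch pathway genes in Cry2 monocultures and in mCherry and GFP cells from co-culture, with filled points at a limma adjusted p under 0.05. NRARP, JAG1, JAG2 and RBPJ lie left of 0 in both engineered populations, DLL4 in all 3, and JAG2 lies right of 0 in GFP cells.

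Of 12 Wnt and FGF feedback genes, several of which cycle with the clock in mice, 10 rose in Cry2 light and none fell, with a median log2 change of 2.65, against -0.01. Of all genes, 28.1% were called higher there and 58.4% in either direction. Here too, genes near 0 in the dark, such as DKK1 and SP5, could be tested only through libraries where they are high. DKK1, a secreted Wnt inhibitor, went from 1.93 ± 1.68 to 46681.6 ± 1975.5, and SP5, a Wnt target repressor, from 2.71 ± 2.18 to 11399.7 ± 475.4. In mCherry cells, where 27.2% of all genes were called higher and 55.9% in either direction, 9 rose and 1 fell, the FGF feedback phosphatase DUSP6. In GFP cells 4 rose, where 4.6% of all genes were called in either direction. They were SP5 (from 3.76 ± 2.5 to 140.8 ± 20.9), the FGF inhibitors SPRY2 and SPRY1, and LEF1 (from 18.3 ± 2.35 to 32.6 ± 5.81), the last named after its values were seen. DUSP6 was the single gene of this list called in wt monocultures, 1.32-fold higher under light (limma adjusted p 0.0278), where 0.072% of all genes were called.

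The signals that pattern this tissue rose too. Of 12 genes, 11 were tested in Cry2 cells, 10 rose and FGF18 fell, with a median log2 change of 7.98, against -0.01. The shares of all genes were 28.1% called higher and 58.4% in either direction. Genes near 0 in the dark, such as CDX1 and CDX2, could be tested only through libraries where they are high. This favours rises in the count and the median. CDX1 and CDX2, posterior homeobox factors, reached 7536.1 ± 470.3 and 7453.6 ± 378.0 from 2.78 ± 1.38 and 5.06 ± 3.5. ALDH1A2, which makes retinoic acid, the signal of differentiating somites, rose from 7.13 ± 3.25 to 10909.6 ± 724.1. In GFP cells FGF8 (6.08-fold) and FGF4 (2.88-fold) were the 2 called, against 4.6% of all genes in either direction.

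Markers of other tissues moved with the same light effect, and their part in the values of the 10 genes was not tested. The counts below stand beside 28.1% of all genes called higher in Cry2 cells and 58.4% in either direction. They carry the same limit for markers near 0 in the dark, such as HAND1. Summed over 8 cardiac and lateral mesoderm markers, libraries ran from 394.4 to 464.8 in Cry2 dark and from 6689.1 to 7143.5 in Cry2 light, with TBX5 at 0 in all 3 light libraries. Of 6 tested, 5 rose, led by HAND1 (0.471 ± 0.816 to 1873.7 ± 304.8) and GATA4 (7.52 ± 4.55 to 4539.8 ± 119.4), and TNNT2, cardiac troponin, fell. These genes bear on MESP1, which heart precursors also express. Neural crest and dorsal neural markers, whose cells also express PAX3, summed to 718.1 to 831.9 in Cry2 dark and 55.0 to 81.0 in Cry2 light, with PAX6 and OLIG3 at 0. Of 4 tested, none rose, and FOXD3 (559.1 ± 47.8 to 0.27 ± 0.468) and SOX10 (154.9 ± 26.9 to 32.0 ± 7.03) fell. Most of the dark sum was FOXD3 and SOX10, and FOXD3 was at 562.9 ± 63.4 in wt light. Whether the sum reflects neural crest cells was not tested.

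Of the 4 endoderm markers 2 were tested and CER1 rose, to 2388.0 ± 134.5, and the sum ran from 2274.5 to 2538.8 in Cry2 light against 70.5 to 91.9 in Cry2 dark. Nearly all of that sum was CER1. FOXA2, a definitive endoderm factor, was at 1.41 ± 0.886 in Cry2 light and 3.31 ± 2.19 in Cry2 dark (limma adjusted p 0.206), and was lower in Cry2 light than in wt light (70.3 ± 44.6, limma adjusted p 7.55e-07). It was also lower in Cry2 dark than in wt dark (41.4 ± 4.87, limma adjusted p 0.001). Of the skeletal muscle markers, MYOG was at 0 in all 3 Cry2 light libraries. All 6 pluripotency markers fell in Cry2 light and in mCherry light, with sums of 71937.1 to 73319.1 in Cry2 light against 249889.0 to 261482.5 in Cry2 dark. Of all genes, 58.4% were called in either direction in Cry2 cells and 55.9% in mCherry cells. In mCherry light the cardiac sum was 6102.2 to 7053.1. The neural crest sum was 51.7 to 83.3 with FOXD3, PAX6 and OLIG3 at 0, and of 5 tested FOXD3 and SOX10 fell and ZIC1, named after its values were seen, rose (4.23 ± 1.14 to 23.6 ± 6.65). The endoderm sum was 3845.2 to 4315.4, and of 2 tested CER1 rose (to 4088.9 ± 235.0) and FOXA2 fell (11.6 ± 4.66 to 3.18 ± 2.4). In GFP light, where DLL1 and DLL3 fell, pluripotency sums were 261263.6 to 298570.3 against 242422.4 to 258195.9 in GFP dark, cardiac sums 148.1 to 179.2 against 292.1 to 342.0, and endoderm sums 156.3 to 216.5 against 60.2 to 86.6 with SOX17 at 0. Most of the endoderm sum was CER1, at 164.6 ± 32.3 against 55.7 ± 13.2 (limma adjusted p 0.000408), the only 1 of 2 tested that was called. Neural crest sums were 609.0 to 689.8 against 631.8 to 862.9, and 1 of 5 tested was called higher. TNNT2 was the single cardiac marker of 6 called there, lower at 101.2 ± 4.43 against 250.1 ± 24.4 (limma adjusted p 0.0435). NANOG and DNMT3B rose there and TDGF1 fell, where 4.6% of all genes were called in either direction.

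Per kilobase of exon, the order of the group means in Cry2 light was MSGN1 (19899.7), DLL3 (10909.3), LFNG (3999.0), HES7 (2259.1), DLL1 (1754.4), MESP1 (529.0), MESP2 (50.2), RIPPLY2 (10.4), PAX3 (3.14) and MEOX1 (1.41). In mCherry light the first 3 were the same, at 17922.9, 14407.2 and 5159.8, while DLL1 (2028.9) stood next to HES7 (1921.4), closer than the 17.0% coefficient of variation of HES7. In wt dark LFNG (284.7) and DLL3 (232.7) led, followed by DLL1 (74.5) and MESP2 (33.7), and MSGN1 had no read. PAX3 and MEOX1 in Cry2 light rest on 87 and 13 reads, with coefficients of variation of 28.4% and 51.0%. The MSGN1 model used for length holds 606 bases, the shortest of the 10, which weighs on its level per kilobase.

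Over the 8 group means, on the log2(value + 1) scale and each centred on its own mean, the genes nearest to each member were searched among 15458. Nearest to MSGN1 were EVX1 and APLNR, at mean absolute differences of 0.25 and 0.3. Nearest to MESP1 were HOXB-AS1 and WNT3A, to HES7 MEIS2 and EDAR, to LFNG BGN, to PAX3 RASSF9 and CPNE4. Nearest to DLL1, with its lower level in GFP light, were HS3ST1 (0.2) and CD6 (0.22), and to DLL3 BMP2 (0.23) and HOXD-AS2 (0.29). MESP2 (GPCPD1, HACD4) and RIPPLY2 (SPHK1, GSTM3) vary little, and so lie near many genes that vary little. The 8 points share the 2 light effects in engineered cells, so this likeness is only a description.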

How the data were processed

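H9 messenger RNA was sequenced in 24 libraries. Per the submitters' processing notes, FastQC, cutadapt, Bowtie2, STAR, HTSeq and DESeq were used (no versions are named) with GRCh38, while a file header names hg19 with 4 added genes. This conflict is unresolved, and coordinates come from GENCODE 29 and RefSeq on GRCh38. Values of overlapping genes are uncertain, since the strand setting of the counting was not stated. The authors' deposited values are a normalised signal: 100.0% were whole reads within 0.01 after multiplication by 1 factor per library. The authors' deposited sample table gave total read counts, GC as a percent and the RNA integrity score, used for the 12 monoculture libraries.

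Monoculture titles, which the genotype tags contradict, set the groups, and co-culture columns could be assigned only to groups, as libraries a, b and c. Replicate numbers did not pair monocultures: of 18 same-number pairs, 1 had a correlation of deviations over 0.1.

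The test was limma-trend (limma 3.58.1, R 4.3.3) on log2(value + 1) for genes at 10 or more in at least 3 libraries, with Benjamini-Hochberg adjusted p under 0.05: 12 monocultures, 12 co-cultures, or all 24. A log2 change on this scale understates changes of low genes. MSGN1, MESP1 and PAX3 passed the filter only through illuminated engineered cells, as did HES7 among the co-cultures. For these members, and for list genes near 0 in the dark, the filter favours a rise, and counts and medians carry that limit. A fold is a ratio of group means, with a floor of 3 reads over a group at 0, and none is given against 1 to 3 reads. Alternatives used edgeR 4.0.16 and DESeq2 1.42.0 on the recovered reads, other pseudocounts and filters, a replicate block, and fewer libraries. On simulated data with known changes, the test recovered 78.6% of log2 changes of 1 for Cry2 light against dark and 85.6% for GFP light against dark, and 100% of those of 2. In each of these simulations 8 unchanged genes were called. They used a fixed spread and changed only genes with dark means of at least 10. The rates therefore do not describe members near 0 in the dark or with a wider spread.

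The 10 members and all lists were chosen with earlier results of these data known. All members are named, and from each other list up to 4 genes per direction and comparison, ranked by absolute log2 change among called genes whose higher group mean reached 50. Of the list genes, TFAP2B, RIPPLY1 and UNCX were not analysed here, and some results of single genes are not reported here. Brachyury was matched as TBXT by its Ensembl identifier.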

Additional observations from a re-analysis of the deposited data

Results flagged for a closer look

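The light effect differed between cell kinds or cultures, by a test of the difference itself (limma, adjusted p under 0.05 over all genes), for the members below. In monoculture the log2 change of Cry2 cells exceeded that of wt cells by 13.27 for MSGN1, 9.69 for MESP1, 7.39 for HES7, 5.05 for DLL3, 4.51 for DLL1, 4.22 for PAX3 and 3.51 for LFNG. Of all genes, 22.8% were called higher for this term and 47.8% in either direction, and edgeR did not call MSGN1 or PAX3. In co-culture the log2 change of mCherry cells exceeded that of GFP cells by 12.29 for MSGN1, 8.07 for HES7, 7.0 for DLL3, 6.5 for MESP1, 5.93 for DLL1, 4.36 for LFNG and 3.47 for PAX3. Of all genes, 19.5% were called higher for this term and 40.5% in either direction. PAX3 was not called by edgeR (adjusted p 0.911) or DESeq2 (0.109).

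In wild-type cells the log2 change was lower in co-culture than in monoculture, by a difference of -1.25 for DLL1 and -1.37 for DLL3. Of all genes, 0.886% were called lower for this term and 2.3% in either direction. All 3 GFP light libraries lay below all 3 GFP dark libraries for both genes, while the wt light and wt dark libraries overlapped. Of all genes, 24.8% did not overlap between GFP light and dark, in either direction.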

How the results depend on the processing

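Of 206 counts of members called under alternative settings, 198 stayed within 1.5 times the value given above, and 8 did not. Between Cry2 and wt in the dark the count was 0, and 1 (DLL3) with a pseudocount of 5, with values of at least 50 in 3 libraries, with edgeR (TMM or DESeq2 size factors) and with DESeq2. At these settings 4.09% to 6.35% of all genes were called. Leaving out 1 library gave 0 to 1 there, and 1 without Cry2 dark 2 (2.08% of all genes). The light effect of engineered cells in co-culture minus monoculture, and mCherry light against Cry2 light, gave 0 to 2 members when 1 library was left out, with 2 without mCherry light a. Without that library 0.394% and 17.0% of all genes were called, respectively. Of 1821 values of single members, 1789 kept their side of the threshold, 14 lost and 18 gained a call. No called change reversed its direction, and directions of changes not called were not compared. Some of these crossed 0: HES7 in GFP light against dark was at 0.06, and at -0.61 to 1.04 with 1 library left out. MESP2 gained a call for the difference of the monoculture light effects without Cry2 light 2 (log2 1.15, adjusted p 0.0276). The cause was not tested, except that the filter at 50 leaves RIPPLY2 or PAX3 untested in some fits.

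Same-number monoculture libraries had correlations of deviations between -0.095 and 0.114, so the numbers do not pair them. With a replicate block the counts were 8 for Cry2 light against dark (58.1% of all genes called) and 0 for wt light against dark (0.0514%). They were 0 for Cry2 against wt in the dark (3.11%), 8 under light (60.7%) and 7 for the difference of the light effects (47.1%). No paired analysis was made of the co-cultures because their columns carry no replicate number. Depth limits MEOX1, PAX3 and the dark levels of MSGN1 and MESP1: 3 reads over a group correspond to a mean of 0.833 to 1.4 normalised reads, so lower levels were not detectable.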
